A study of Mus musculus with 88 samples.

Results

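Glo1 and its neighbours Btbd9, Dnah8 and Glp1r lie side by side on mouse chromosome 17, and their expression was compared across 2 strains, 3 brain regions and the outcome of chronic social defeat stress (CSDS). The members were the rows of the deposited tables whose Ensembl gene ID carries 1 of these 4 symbols, and they are 4 of the 21767 genes that could be tested in at least 1 region. All 4 were tested in each region, beside 18946 genes in all in the medial prefrontal cortex (mPFC), 17515 in the bed nucleus of the stria terminalis (BNST) and 19559 in the ventral hippocampus (vHPC). The mice were males aged 8 weeks of the inbred strains labelled C57BL/6Crl (B6) and DBA/2Crl (D2), which the methods of the study give as C57BL/6NCrl and DBA/2NCrl. Each was either an undefeated control or was defeated repeatedly by a larger mouse and, from how much it then approached a social target, called resilient or susceptible. Tissue was taken 6 to 8 days after the last CSDS, 1 library was made from each mouse and region, and 7 mice contributed to the mPFC as well as the vHPC. The mPFC was taken from 18 B6 mice (6 controls, 6 resilient, 6 susceptible) and 14 D2 mice (6 controls, 8 susceptible). The BNST came from 15 B6 mice (5 controls, 5 resilient, 5 susceptible) and 13 D2 mice (5 controls, 3 resilient, 5 susceptible), and the vHPC from 17 B6 mice (6 controls, 8 resilient, 3 susceptible) and 11 D2 mice (6 controls, 5 susceptible).

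Glo1 encodes glyoxalase 1, which uses glutathione to detoxify methylglyoxal, a reactive by-product of glycolysis that also acts on inhibitory GABA-A receptors. The chromosome segment around Glo1 is known to be duplicated in some inbred mouse strains and single in others, and Glo1 has been linked to anxiety-like behaviour in mice. Btbd9 encodes a BTB domain protein that works with the ubiquitin ligase scaffold cullin 3, and its human counterpart lies in a locus associated with restless legs syndrome. Dnah8 encodes a heavy chain of axonemal dynein, the motor of sperm tails and motile cilia. Glp1r encodes the receptor for glucagon-like peptide 1, which lowers food intake through neurons of the hindbrain and hypothalamus. No copy number was measured in these samples.

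In the GRCm38 build, Btbd9 spans chr17:30215524-30576488 and Glo1 chr17:30584936-30626871, both on the minus strand. Dnah8 spans chr17:30624354-30877365 and Glp1r chr17:30901817-30940791, both on the plus strand. Each is a protein-coding gene, and together they cover 725 kb. In these spans, which are those of GENCODE, the starts of Glo1 and Dnah8 overlap on opposite strands. Whether reads were counted by strand is not given in the sources used here, so reads from the shared stretch cannot be assigned to 1 of these genes. Reads of both strains were aligned to a genome made from B6 mice, so sequence differences of D2 mice could change how many of their reads were counted.

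The 250 bases before the RefSeq start are given for 3 of the 4 members, Glo1, Dnah8 and Glp1r, because the members differed together between the strains in the mPFC and vHPC. Btbd9 had no match in the promoter table used. The reference sequence is that of GRCm38.p6, read 5′ to 3′ on each gene's strand, and capitals mark the CCAAT box (CCAAT) and the GC box (GGGCGG) on either strand. The windows are chr17:30612660-30612909 on the minus strand for Glo1, chr17:30626686-30626935 on the plus strand for Dnah8 and chr17:30901617-30901866 on the plus strand for Glp1r. The RefSeq starts differ from the starts of the GENCODE spans given above. The windows of Glo1 and Dnah8 therefore lie inside those spans, and that of Glp1r reaches into its span. By the RefSeq starts, Glo1 and Dnah8 do not overlap.
Glo1: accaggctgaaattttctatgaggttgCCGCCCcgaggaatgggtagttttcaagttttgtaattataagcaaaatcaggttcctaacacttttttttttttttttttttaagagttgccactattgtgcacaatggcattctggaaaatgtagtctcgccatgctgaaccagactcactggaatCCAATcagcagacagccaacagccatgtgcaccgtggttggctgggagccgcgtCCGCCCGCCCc
Dnah8: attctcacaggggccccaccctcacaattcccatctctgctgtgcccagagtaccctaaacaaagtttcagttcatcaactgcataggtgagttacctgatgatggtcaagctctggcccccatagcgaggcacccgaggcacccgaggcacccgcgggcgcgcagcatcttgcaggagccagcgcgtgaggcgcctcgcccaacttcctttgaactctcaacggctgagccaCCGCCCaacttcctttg
Glp1r: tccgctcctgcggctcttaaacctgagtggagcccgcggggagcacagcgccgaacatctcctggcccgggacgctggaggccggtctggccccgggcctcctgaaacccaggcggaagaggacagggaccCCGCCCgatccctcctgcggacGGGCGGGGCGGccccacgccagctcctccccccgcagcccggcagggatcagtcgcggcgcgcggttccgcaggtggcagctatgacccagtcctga
Glo1 held 1 CCAAT box and 3 GC boxes, of which a pair overlap next to the start. Dnah8 held 1 GC box, and Glp1r held 3, a pair of them overlapping. Of 32851 mouse promoters of the same length, 33.8% held the CCAAT box and 32.7% the GC box. None of the 3 windows held the TATA box (TATAAA), the E box (CACGTG) or the core of the antioxidant response element (TGACNNNGC). These were found in 12.4%, 6.02% and 10.16% of promoters. These matches describe the letters of the windows and say nothing of binding, and the sequence is that of the B6-derived reference, not of D2 mice.

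Libraries held 17264800 to 37034746 reads in the mPFC, 11825757 to 25793910 in the BNST and 8410633 to 26439053 in the vHPC. Only the BNST table holds counts, so levels elsewhere have no known counting error. Each region was made with its own library kit and normalized by itself, and levels are therefore compared within regions. In the mPFC and BNST, library preparation sets mixed the groups, and 4 of 5 and 2 of 2 sets held controls of both strains. In the vHPC, libraries were prepared in 10 sets, none of which held controls of both strains or a B6 control beside a defeated B6 mouse. A single vHPC set held a D2 control beside a D2 susceptible mouse, so in the vHPC the preparation set and the group can hardly be told apart. In the BNST, 4 of the 5 D2 susceptible mice were in sequencing sets that held no mouse of another group. Hippocampus markers had a summed level of 964 to 1088 CPM (counts scaled to a common library size) in vHPC B6 controls. In BNST B6 controls it was 863 to 1199 CPM, and in mPFC B6 controls 316 to 435. Striatal neuron markers summed to 1460 to 3171 CPM in BNST B6 controls and 483 to 2466 in BNST D2 controls. The highest BNST sum, 5656 CPM, was in a B6 susceptible mouse. How pure the dissections were was not tested. Levels of the other cell type markers reported are given beside the results they move with.

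Glo1 was higher in D2 than in B6 controls in each of the 3 regions. In the mPFC, its lowest, median and highest levels in log2 CPM, where CPM are counts scaled to a common library size, were 4.63, 4.83 and 5.02 in 6 B6 controls and 5.52, 5.63 and 5.77 in 6 D2 controls. The groups did not overlap, and D2 controls were 1.75-fold higher (log2 difference 0.81 ± 0.06 SE, limma with Benjamini-Hochberg adjusted p = 1.54e-11). In the BNST, Glo1 stood at 4.87, 5.12, 5.21, 5.25 and 5.28 log2 CPM in the 5 B6 controls and at 5.54, 6.06, 6.18, 6.23 and 6.41 in the 5 D2 controls. Every D2 control again lay above every B6 control, at 1.94-fold (log2 difference 0.96 ± 0.14 SE, edgeR with Benjamini-Hochberg adjusted p = 5.37e-05). The lowest D2 value came from replicate 2, and without this mouse the log2 difference was 1.07. In the vHPC, the lowest, median and highest Glo1 levels were 4.96, 5.09 and 5.26 log2 CPM in 6 B6 controls and 6.17, 6.32 and 6.35 in 6 D2 controls. The strains were farthest apart there, at 2.29-fold (log2 difference 1.197 ± 0.07 SE, limma with Benjamini-Hochberg adjusted p = 7.45e-14), though the difference between regions was not tested. Ranked by this log2 difference from the highest, Glo1 stood 361st (mPFC), 512th (BNST) and 382nd (vHPC). Since these are pieces of tissue, a change in the share of cells that use a gene and a change in RNA per cell cannot be told apart.

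Of the 4 members, the mPFC called 4, the BNST 2 and the vHPC 4 between D2 and B6 controls, each higher in D2, where called means an adjusted p under 0.05. Over all genes tested, 27.8% were called in the mPFC in either direction, 2.51% in the BNST and 59.3% in the vHPC. A vHPC call by itself therefore sets a gene little apart from the rest.

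Dnah8 showed the largest log2 difference between strains of the 4 genes in the BNST and vHPC, from a low level in B6 mice. In the mPFC, its lowest, median and highest levels were 1.4996, 1.60 and 1.96 log2 CPM in B6 controls and 2.86, 3.37 and 3.90 in D2 controls. In the BNST, B6 controls stood at -1.05, -0.06, 0.04, 0.24 and 0.79 log2 CPM, which rest on 6 to 28 reads each, and D2 controls at 1.32, 1.96, 2.41, 2.45 and 3.00, from 35 to 148 reads. In the vHPC, the lowest, median and highest levels were -0.66, 0.19 and 0.40 log2 CPM in B6 controls and 2.236, 2.43 and 2.81 in D2 controls. No B6 mouse of any phenotype reached the level of a D2 mouse in any region. In the mPFC D2 controls were 3.35-fold higher (log2 difference 1.74 ± 0.17 SE, limma adjusted p = 2.74e-09), with 4.74-fold for the BNST (2.25 ± 0.35 SE, edgeR adjusted p = 0.000129) and 5.62-fold for the vHPC (2.49 ± 0.17 SE, limma adjusted p = 4.04e-12). By the size of this difference it ranked 78th, 90th and 89th among the genes tested.

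Btbd9, the most highly expressed of the 4 per kb of exon in the mPFC and vHPC, differed least between strains. Its lowest, median and highest mPFC levels were 5.88, 6.03 and 6.12 log2 CPM in B6 controls and 6.18, 6.30 and 6.42 in D2 controls, which did not overlap (log2 difference 0.29 ± 0.07 SE, limma adjusted p = 0.00203). In the vHPC the levels were 6.72, 6.79 and 6.88 against 7.16, 7.27 and 7.37 log2 CPM, again without overlap (log2 difference 0.47 ± 0.04 SE, limma adjusted p = 2.62e-10). In the BNST, B6 controls stood at 5.35, 5.44, 5.45, 5.601 and 5.68 log2 CPM and D2 controls at 5.31, 5.51, 5.61, 5.85 and 6.12. These overlapped, with a log2 difference of 0.20 (95% interval -0.06 to 0.46, edgeR adjusted p = 0.492).

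Glp1r had the lowest levels of the 4 genes in the mPFC, and its strain difference there was the least certain of the called ones. B6 controls ranged from -2.72 to -0.47 log2 CPM with a median of -0.84, and D2 controls from -0.11 to 1.75 with a median of 0.60 (log2 difference 1.81 ± 0.44 SE, limma adjusted p = 0.00261). In the vHPC, the lowest, median and highest levels were 0.80, 1.17 and 1.61 log2 CPM in B6 controls and 2.35, 2.71 and 2.97 in D2 controls (log2 difference 1.55 ± 0.13 SE, limma adjusted p = 2.26e-10). In the BNST, B6 controls at -0.11, 0.68, 1.11, 1.23 and 1.89 log2 CPM overlapped D2 controls at 0.52, 1.02, 1.03, 1.76 and 2.136. The BNST log2 difference of 0.31 had a 95% interval of -0.73 to 1.34 (edgeR adjusted p = 0.814), so a difference of the size seen in the vHPC lay outside the interval.

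**Figure D1:**
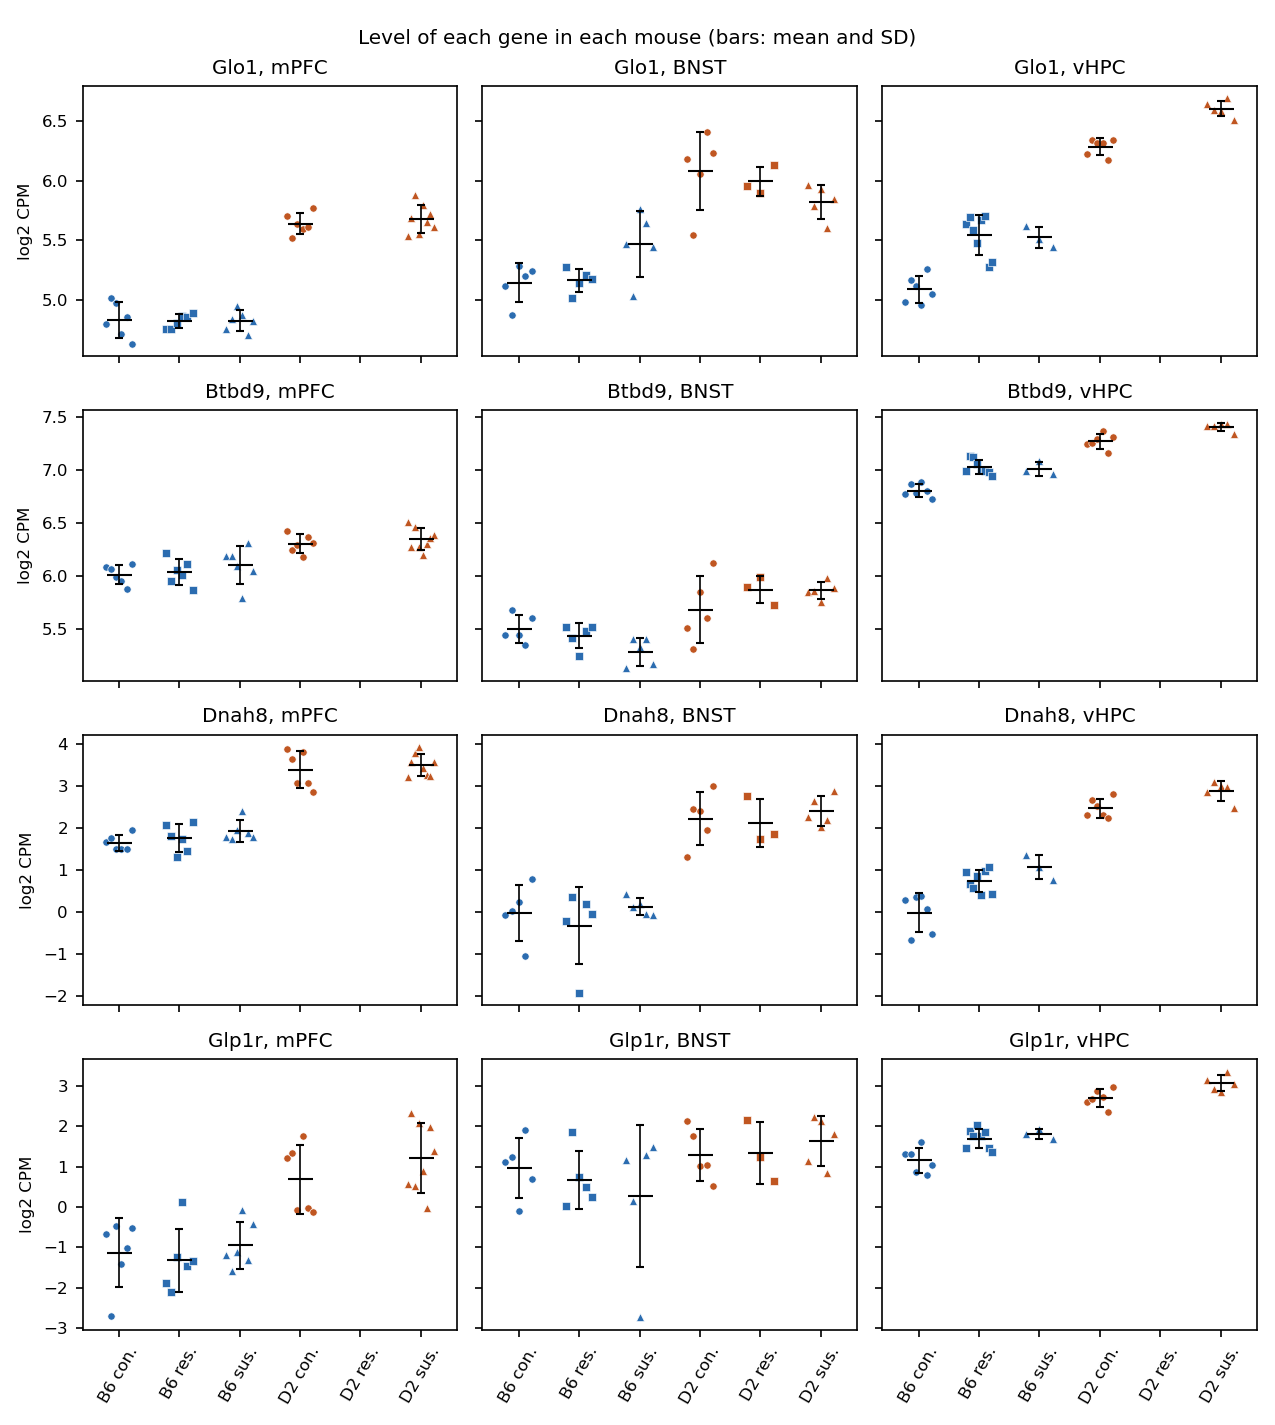
Level of Glo1, Btbd9, Dnah8 and Glp1r (rows, log2 CPM) in every mouse of the mPFC, BNST and vHPC (columns), with 1 point per mouse, blue for B6 and orange for D2, circles for controls, squares for resilient and triangles for susceptible mice, and the mean and SD of each group. Dnah8 separates the strains in every region, Glo1 separates them in the mPFC and vHPC, and in the vHPC each gene steps up from B6 controls over defeated B6 mice and D2 controls to D2 susceptible mice.

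In defeated mice Glo1 was called higher in D2 in each comparison but that of susceptible mice in the BNST. In susceptible mice the log2 difference of Glo1 between D2 and B6 was 0.85 in the mPFC (limma adjusted p = 9.29e-13) and 1.08 in the vHPC (limma adjusted p = 2.65e-10). In the BNST it was 0.83 in resilient mice (edgeR adjusted p = 0.00262) but 0.34 in susceptible mice (edgeR adjusted p = 0.181), whose strains overlapped. Without TMM scaling factors, which range from 0.656 to 1.27 over BNST libraries, that value was 0.83 and was called (edgeR adjusted p = 0.00302). Dnah8 was called higher in D2 in each of these comparisons, with log2 differences of 1.57 to 2.37. Btbd9 was called higher in D2 among susceptible mice in the mPFC (log2 difference 0.24), the BNST (0.57) and the vHPC (0.40), and its BNST strains did not overlap in susceptible mice. Over all genes, 17.5%, 5.18% and 32.7% were called between strains in susceptible mice of the mPFC, BNST and vHPC, and 1.55% in resilient mice of the BNST. Glp1r was called among susceptible mice in the mPFC (log2 difference 2.166) and vHPC (1.26), and not in the BNST (0.93 in susceptible and 0.66 in resilient mice), though without TMM factors the former was 1.36 and was called (edgeR adjusted p = 0.0442). With the preparation set as a covariate, 3 of the calls in susceptible vHPC mice were lost, those of Btbd9 (0.34, limma adjusted p = 0.0897), Dnah8 (1.17, limma adjusted p = 0.0652) and Glp1r (1.131, limma adjusted p = 0.0961).

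Genes outside the segment were compared in the same way, taking the 15 nearest genes measured in at least 1 region on each side. In the mPFC, 4 of the 27 tested neighbours were higher and 4 lower in D2 controls, with a median log2 difference of 0.00 and a range of -0.68 to 1.185. In the BNST 0 of 27 were called, with a median of -0.13, and in the vHPC 11 of 30 were higher and 5 lower, with a median of 0.08. The median over all genes was 0.00, 0.04 and 0.01 in the 3 regions, and the shares of all genes called were the 27.8%, 2.51% and 59.3% given above, so the neighbours were called about as often as other genes in the mPFC and vHPC.

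The flanking gene next to Btbd9 is Zfand3, a zinc finger gene, whose log2 difference was -0.11 in the mPFC (limma adjusted p = 0.154), -0.12 for the BNST (edgeR adjusted p = 0.874) and 0.25 in the vHPC (limma adjusted p = 0.00101). Umodl1, beyond Glp1r, was tested in the vHPC alone (log2 difference -0.32, limma adjusted p = 0.0827). Among neighbours called in at least 2 regions, Pi16, which encodes a peptidase inhibitor, was higher in D2 controls in the mPFC (1.185) and vHPC (0.76), and its BNST log2 difference was 0.01. Tbc1d22b was higher in both (0.13 and 0.26), though its reads cannot be told from those of an annotated antisense gene. The splicing-associated isomerase gene Ppil1 was lower in D2 (log2 difference -0.68 in the mPFC and -0.29 in the vHPC), as was Cbs, the enzyme that opens transsulfuration towards cysteine and glutathione (-0.28 and -0.39). Fgd2 was lower in the mPFC (-0.37) and higher in the vHPC (0.27). Within the segment, the transcript Gm9874 inside Btbd9 had a log2 difference of 0.48 in the mPFC (limma adjusted p = 0.210) and was higher in D2 in the vHPC (0.82, limma adjusted p = 8.43e-09). It lies on the strand opposite to Btbd9, and since counting by strand is not known, its reads may not be separate from those of Btbd9.

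**Figure D2:**
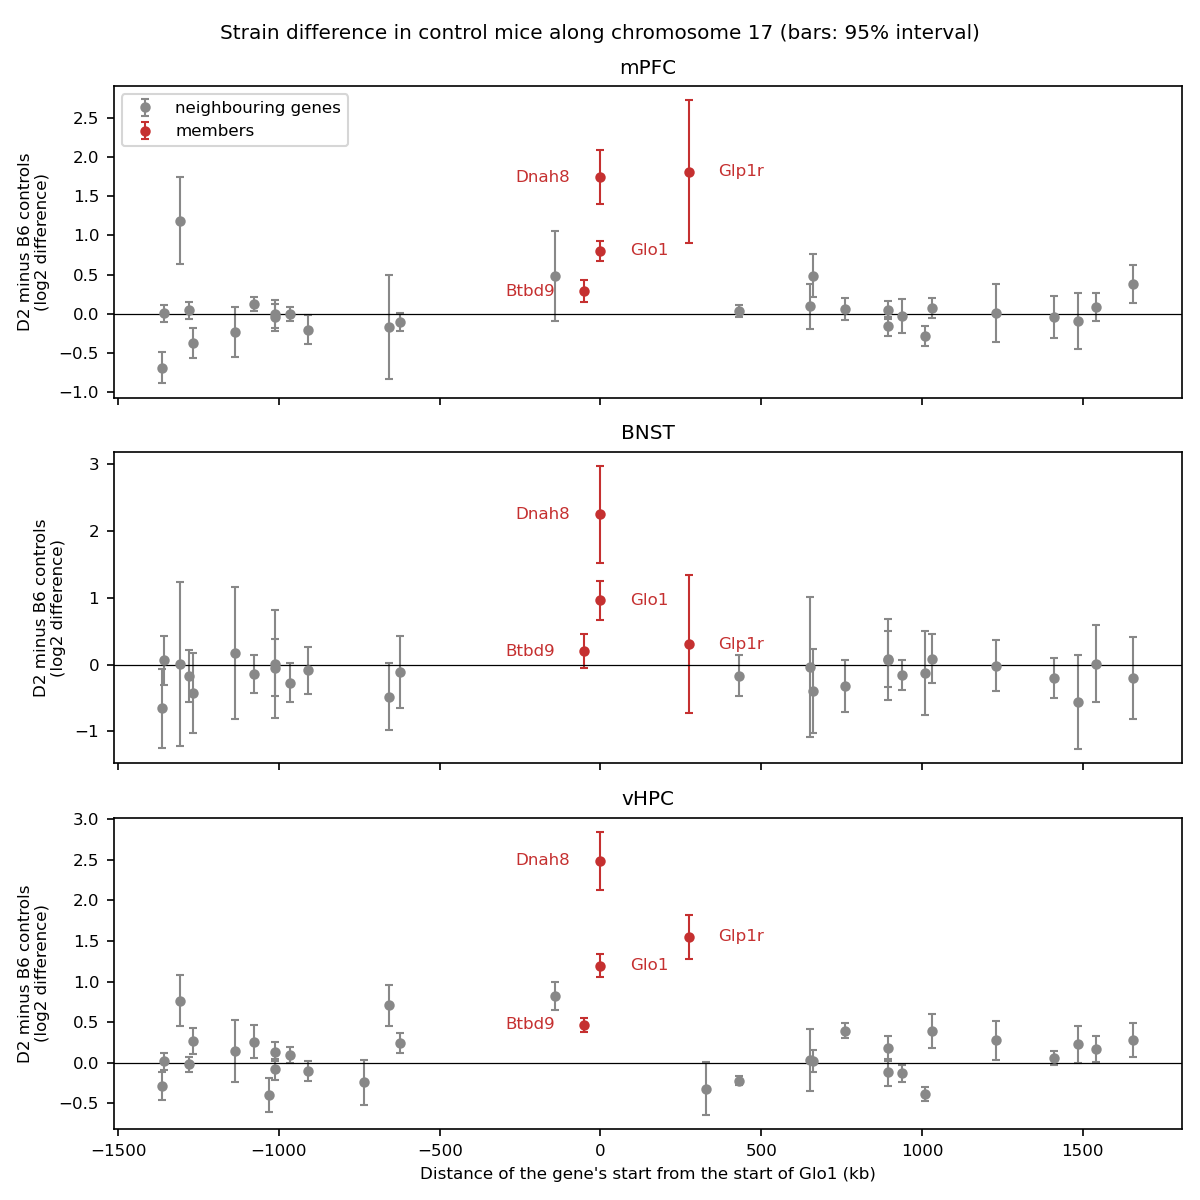
Log2 difference between D2 and B6 controls (vertical axis) of Glo1, Btbd9, Dnah8 and Glp1r (red) and the neighbouring genes (grey) against the distance of each gene's start from the start of Glo1 in kb, 1 panel per region, with 95% intervals. Glo1 and Dnah8 stand above every neighbour in the BNST and vHPC, while in the mPFC Pi16 at 1.185 lies above Glo1 at 0.81.

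In the mPFC, no member was called in a comparison of defeated with control mice. Glo1 ran from 4.63 to 5.02 log2 CPM in B6 controls, from 4.76 to 4.89 in resilient and from 4.71 to 4.95 in susceptible B6 mice, and from 5.54 to 5.88 in susceptible D2 mice. Its log2 difference from controls was -0.01 in resilient B6 mice (95% interval -0.14 to 0.12), -0.01 in susceptible B6 mice (-0.13 to 0.12) and 0.04 in susceptible D2 mice (-0.08 to 0.16), which bounds any change at a small part of the strain difference of 0.81. The intervals of Dnah8 and Glp1r were wider, reaching 0.63 and 1.39 on the log2 scale. By limma over all mPFC genes, 2.22% were called in susceptible B6 mice. These 420 genes became 39 with the preparation set as a covariate, 4 when only the groups compared were fitted and 0 with the prefix of the mouse ID as a covariate. In resilient B6 and susceptible D2 mice 0 genes were called, though 731 and 734 had a p under 0.05 before adjustment.

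No BNST comparison of defeated with control mice called a member, and Glo1 leaned in opposite directions in the strains. B6 susceptible mice stood at 5.04, 5.45, 5.47, 5.65 and 5.76 log2 CPM, and 4 of the 5 lay above the highest B6 control (5.28). D2 susceptible mice stood at 5.61, 5.79, 5.85, 5.93 and 5.97, and 4 of the 5 D2 controls lay above the highest of them. The log2 difference from controls was 0.34 ± 0.14 SE in B6 (edgeR adjusted p = 0.719) and -0.28 ± 0.14 SE in D2 (edgeR adjusted p = 0.848). The difference between these strain-specific effects was -0.62 ± 0.20 SE (edgeR adjusted p = 0.190). Before adjustment edgeR gave p = 0.0236, 0.0558 and 0.00438 for these, and an exact two-sided permutation test over mice gave p = 0.0635 in B6 and p = 0.143 in D2. Without TMM factors the log2 differences shrank to 0.068 in B6 and 0.00547 in D2, and the interaction to -0.063. Of the D2 susceptible mice, the 1 whose sequencing set was shared with other groups stood at 5.93, inside the range of the other 4, and the sequencing sets of these 4 and their group cannot be told apart. Resilient mice gave Glo1 log2 differences of 0.02 in B6 (95% interval -0.28 to 0.31) and -0.11 in D2 (-0.45 to 0.22). By edgeR, 0 of 17515 genes were called in each of the 4 BNST stress comparisons and in the interaction. Before adjustment, a p under 0.05 was found for 328 genes in resilient and 1115 in susceptible B6 mice, 953 in resilient and 1056 in susceptible D2 mice, and 2004 in the interaction for susceptible mice. DESeq2 called 1, 0, 3 and 12 genes in the stress comparisons in that order.

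The summed level of 8 oligodendrocyte markers moved in the direction of Glo1 in susceptible BNST mice of both strains, although none of the 8 was called. It ranged from 2612 to 7681 CPM in B6 controls and 5270 to 11095 in B6 susceptible mice, and from 3476 to 11383 in D2 controls and 2109 to 6291 in D2 susceptible mice. In D2 resilient mice the sum was 3616 to 4758 CPM. The median log2 difference of the markers there was -0.67, where that of Glo1 was only -0.11. In B6 resilient mice these were -0.005 and 0.02. The direction in susceptible mice was not specific to oligodendrocyte markers. Astrocyte markers had median log2 differences of 0.18 in B6 susceptible and -0.30 in D2 susceptible mice. Those of inhibitory neuron markers were 0.21 and -0.40, and those of microglia markers 0.16 and -0.06. Among lists that went the other way were excitatory neuron markers (-0.997 and 1.17) and choroid plexus markers (-0.30 and 0.13). The part of any of these cell types in the Glo1 values was not tested. Of the other members, Btbd9 ran against Glo1 in the BNST, with log2 differences of -0.22 in B6 susceptible (edgeR adjusted p = 0.823) and 0.16 in D2 susceptible mice (edgeR adjusted p = 0.951), neither of which was called. Their interaction was 0.37 (edgeR adjusted p = 0.421), and without TMM factors it was 0.92 and called (edgeR adjusted p = 0.0460). Glp1r rested on few reads there, down to 2 reads (-2.73 log2 CPM) in B6 susceptible replicate 3.

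In the vHPC, by contrast, all 4 members were called higher in defeated than in control B6 mice, where 4.94% of all genes were called higher in resilient and 20.5% in susceptible mice. Glo1 had a lowest, median and highest level of 5.28, 5.61 and 5.705 log2 CPM in 8 resilient mice, and stood at 5.45, 5.51 and 5.62 in 3 susceptible mice. All of these lay above the highest of 6 B6 controls (5.26) and below the lowest D2 control (6.17). Glo1 rose 1.37-fold in resilient mice (log2 difference 0.46 ± 0.06 SE, limma adjusted p = 1.67e-05) and 1.35-fold in susceptible mice (0.44 ± 0.08 SE, limma adjusted p = 0.000292). Exact two-sided permutation tests over mice gave p = 0.000666 and p = 0.0119, the latter being the smallest p that its design allows. Both comparisons share the same 6 controls.

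Btbd9 rose by the smallest step, with resilient mice at 6.94 to 7.13 and susceptible mice at 6.96 to 7.08 log2 CPM against 6.72 to 6.88 in controls (log2 differences 0.22 and 0.20, limma adjusted p = 0.000188 and 0.00217). Dnah8 rose from a median of 0.19 log2 CPM in controls to 0.77 in resilient and 1.09 in susceptible mice (log2 differences 0.76 and 1.09, limma adjusted p = 0.00236 and 0.000335). Glp1r rose from a median of 1.17 to 1.75 and 1.803 log2 CPM (log2 differences 0.54 and 0.65, limma adjusted p = 0.00450 and 0.00300), and its resilient mice overlapped the controls. No member was called between susceptible and resilient mice in any region, where 2.02% of genes were called in the mPFC of B6 mice, 27.6% in the vHPC of B6 mice and 0.00571% in the BNST of B6 mice.

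In D2 mice, Glo1 was the only member called in the vHPC, where 1.54% of all genes were called higher. Susceptible D2 mice stood at 6.51, 6.58, 6.60, 6.64 and 6.69 log2 CPM, each above the highest D2 control at 6.35. The rise was 1.25-fold (log2 difference 0.32 ± 0.07 SE, limma adjusted p = 0.00867), and the exact two-sided permutation p was 0.00216, the smallest the design allows. Btbd9, Dnah8 and Glp1r had log2 differences of 0.14, 0.41 and 0.36 (limma adjusted p = 0.0688, 0.238 and 0.165). The effect of susceptibility was not called as different between strains for any member, where 0.782% of genes were, and the Glo1 interaction was -0.12 (95% interval -0.35 to 0.11).

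**Figure D3:**
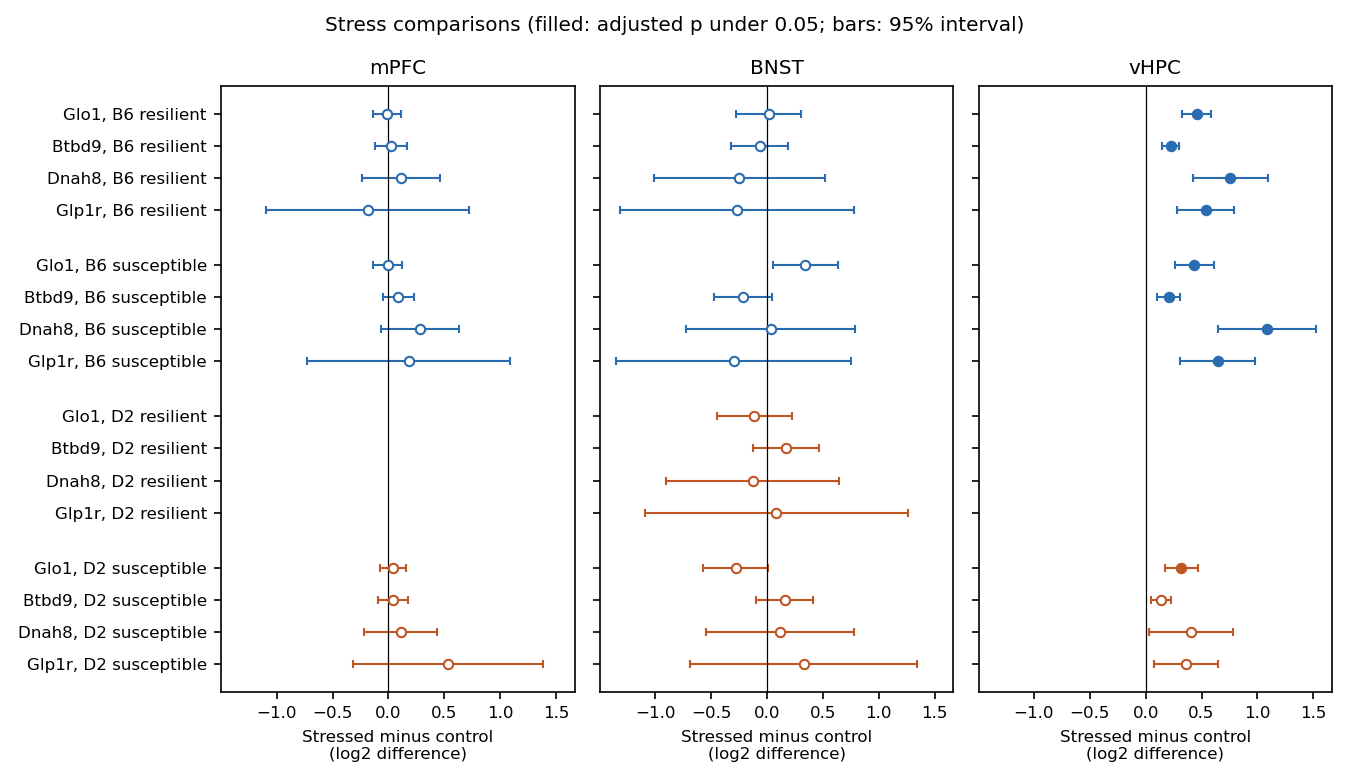
Log2 difference of defeated from control mice of the same strain (horizontal axis) for each member and comparison, 1 panel per region, with 95% intervals and filled points for an adjusted p under 0.05. The filled points are all in the vHPC, where every estimate lies above 0, while the mPFC intervals of Glo1 include 0.

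In the vHPC, phenotype was nearly confounded with how the libraries were made. Of the B6 mice, all 6 controls were in sequencing set 1, but 7 of the 8 resilient mice were in sequencing set 2, and no preparation set held a B6 control with a defeated B6 mouse. With the preparation set as a covariate, the log2 difference of Glo1 was 0.62 ± 0.25 SE in resilient B6 mice (limma adjusted p = 0.9998), 0.52 ± 0.24 SE in susceptible B6 mice (limma adjusted p = 0.379) and 0.11 in susceptible D2 mice (limma adjusted p = 0.971), and none was called. The B6 differences did not shrink, but their errors grew, since no set compares these groups directly. They are reached only through sets shared with other groups, and Dnah8 in resilient B6 mice went from 0.76 to 2.42 in that fit. The size of these values therefore cannot separate stress from the preparation set. That fit called 41, 202 and 3 genes in the 3 comparisons, against 2120, 7949 and 837 without the covariate. With the sequencing set as a covariate Glo1 was still called in B6 mice and was not in D2 mice (log2 difference 0.28, limma adjusted p = 0.0934). Within sequencing set 1, 2 susceptible B6 mice gave 0.44 (limma adjusted p = 0.00256), the single resilient B6 mouse gave 0.39 (limma adjusted p = 0.1197), and the single susceptible D2 mouse 0.23 (limma adjusted p = 0.584). For these single mice the spread was taken from the other groups, so a lost call says little. In the set that held both a D2 control and a D2 susceptible mouse, Glo1 was 6.34 and 6.51 log2 CPM. The strain difference of Glo1 in controls was 1.36 with the preparation set as a covariate (limma adjusted p = 0.00127) and still called.

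**Figure D4:**
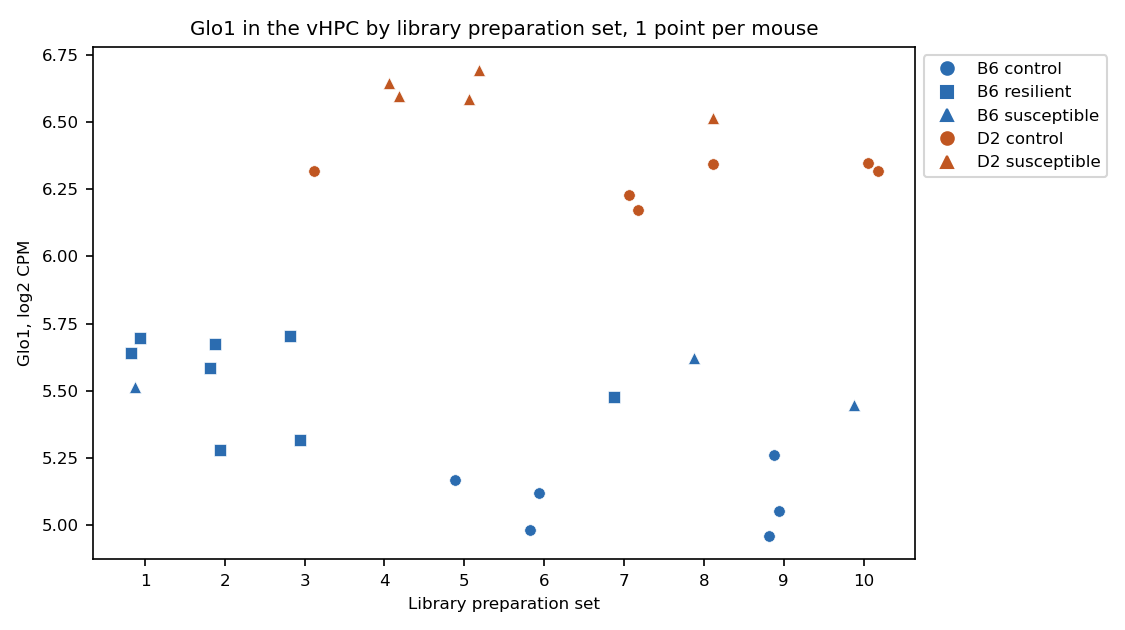
Glo1 in the vHPC (vertical axis, log2 CPM) by library preparation set (horizontal axis), with 1 point per mouse, blue for B6 and orange for D2, circles for controls, squares for resilient and triangles for susceptible mice. The 6 B6 controls, at 4.96 to 5.26, sit in sets that hold no defeated B6 mouse.

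The members' vHPC values also followed the axis that separates the strains. For genes called between strains in mPFC controls with a log2 difference over 1 in either direction, leaving out the members, each library was placed on a scale from 0 at the B6 control median to 1 at the D2 control median, and the median over genes was taken. This measure was chosen after values were seen. Of the 568 genes that met this rule, only a part was used in each region, the mPFC included. The positions therefore rest on a further selection of these genes, which differs between regions. In the vHPC, over 347 genes, resilient B6 mice stood at 0.299 to 0.360, susceptible B6 mice at 0.444 to 0.509 and susceptible D2 mice at 1.15 to 1.26. In the mPFC (540 genes) defeated B6 mice stood at 0.0174 to 0.121, and in the BNST (220 genes) at 0 to 0.102. On the same scale the group medians of Glo1 in the vHPC were 0.428 in resilient B6, 0.347 in susceptible B6 and 1.23 in susceptible D2 mice. Dnah8 stood at 0.259, 0.401 and 1.24, Btbd9 at 0.423, 0.412 and 1.3004, and Glp1r at 0.381, 0.414 and 1.21. In susceptible B6 mice all 4 members stood below the range of the libraries. In resilient B6 mice Glo1, Btbd9 and Glp1r stood above it and Dnah8 below. Each library value is a median over 347 genes, while a member is 1 gene, and the spread of single genes on this scale was not computed. A place outside the range therefore does not set a member apart. Whether stress, the preparation sets or the authors' adjustment for them gave these steps cannot be told apart.

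Across the 88 libraries, with each region centred on its own mean, the genes most like Glo1 of 16042 measured in all 3 regions were on other chromosomes. They were Alad on chromosome 4 (Pearson r = 0.94), which encodes an early enzyme of haem synthesis, the RNase P RNA-like gene Rprl3 on chromosome 8 (0.94), Hddc3 on chromosome 7 (0.94), Hdhd3 on chromosome 4 (0.93) and Stab2 on chromosome 10 (0.93), a scavenger receptor gene. Dnah8 came 48th (r = 0.85), Btbd9 164th (0.74) and Glp1r 440th (0.60). The libraries share strain, preparation set and depth, so these values describe a pattern. Stab2 ranged from -1.08 to 0.67 log2 CPM in B6 and from 5.74 to 7.65 in D2 mice of the mPFC. In the vHPC it ran from -0.74 to -0.05 in B6 controls, 1.66 to 2.48 in resilient and 3.05 to 3.601 in susceptible B6 mice, and from 6.58 to 7.51 in D2 controls and 8.20 to 9.496 in susceptible D2 mice. Alad took the same order in the vHPC, with group medians of 3.35, 4.151 and 4.45 log2 CPM in B6 and 5.85 and 6.45 in D2 mice. Alad and Glo1 also shared their lowest BNST D2 control, replicate 2, at 3.402 and 5.54 log2 CPM. The same mouse was the lowest D2 control for Rprl3 (1.03), Hddc3 (2.38), Hdhd3 (1.44) and Stab2 (5.92). BNST B6 controls ranged from 2.43 to 3.03 for Hddc3 and from 0.93 to 2.00 for Hdhd3, so for these genes it was no higher than B6 controls. The cause was not tested.

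**Figure D5:**
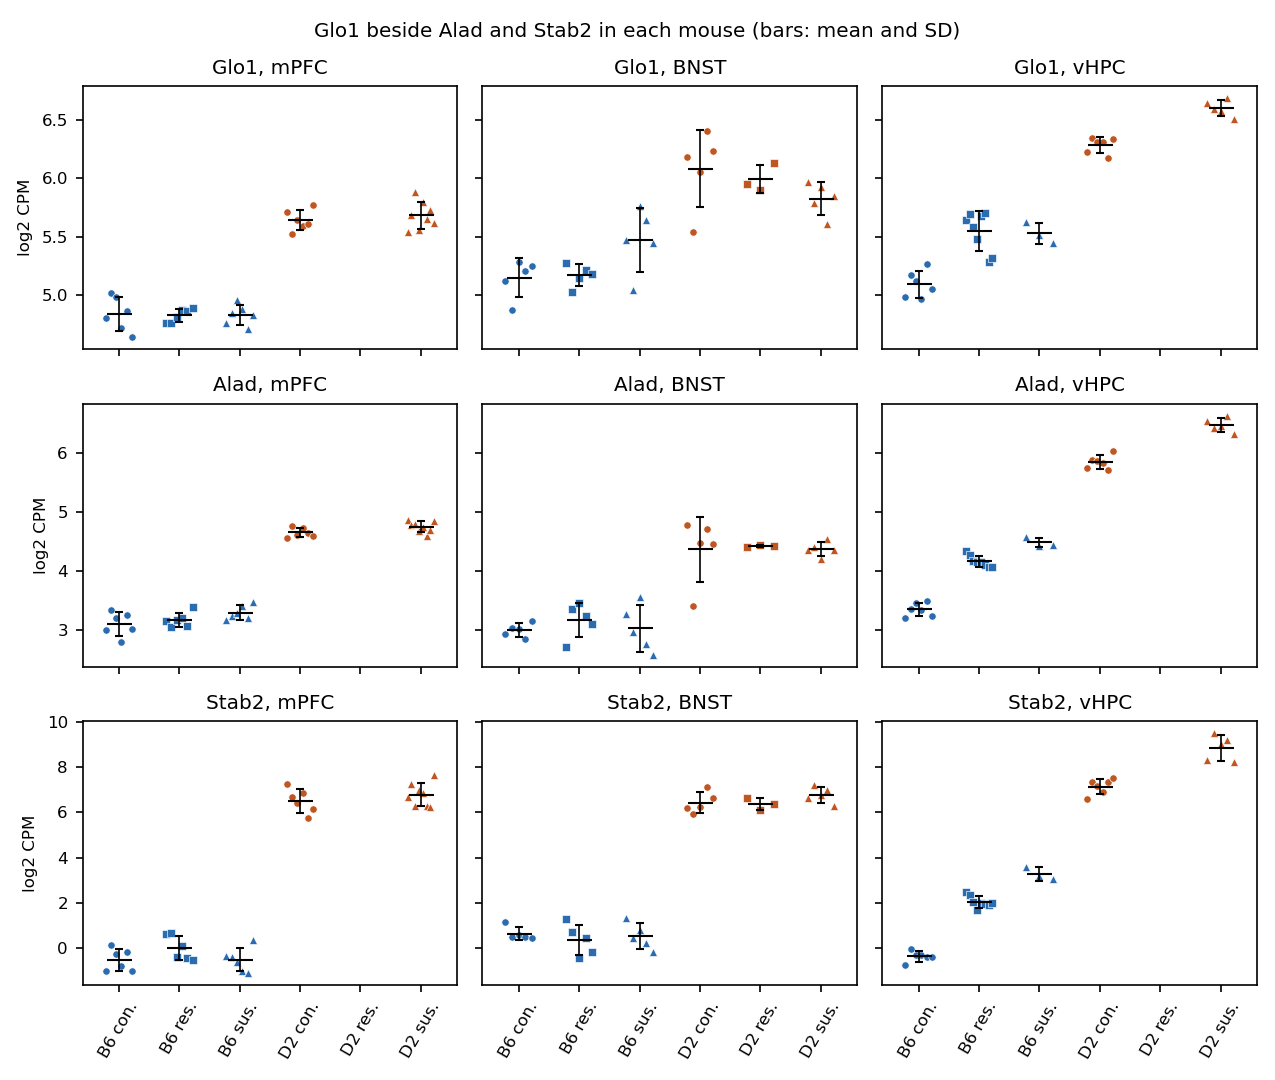
Level of Glo1, Alad and Stab2 (rows, log2 CPM) in every mouse of the mPFC, BNST and vHPC (columns), with the mean and SD of each group, blue for B6 and orange for D2. In the vHPC the means of defeated B6 mice lie between those of B6 and D2 controls for all 3 genes, while in the mPFC defeated and control B6 mice overlap.

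Genes from the pathways of the members moved in both directions between strains. Of 32 tested genes of methylglyoxal and glutathione metabolism, 5 were higher and 9 lower in D2 controls in the mPFC (median log2 difference -0.04, against 0.00 over all genes), 0 in the BNST (-0.00) and 7 and 10 in the vHPC (-0.06), beside the shares of all genes called given above. Gsr, the reductase that regenerates glutathione, was higher in D2 in the mPFC (0.40) and vHPC (1.02). Slc7a11, the cystine transporter that feeds glutathione synthesis, was lower (-0.75 and -1.05), while its partner subunit Slc3a2 was higher (0.15 and 0.43). The aldehyde dehydrogenase gene Aldh1a1 was lower in the vHPC alone (-1.18). Of 16 tested GLP-1 signalling genes, the mPFC had 1 higher and 2 lower and the vHPC 3 and 8, and of 15 in the BNST none was called. In this list Glp2r, the receptor for the sister peptide GLP-2, was lower in D2 (-1.43 and -2.33), opposite to Glp1r. Dpp4, the peptidase that inactivates GLP-1, and Bdnf, a neurotrophin induced through cAMP, were lower in the vHPC (-0.77 and -0.71).

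Among axonemal and ciliary genes, Dnah6, another dynein heavy chain, was higher in D2 controls in all 3 regions (log2 differences of 3.62, 3.92 and 1.97 for mPFC, BNST and vHPC), as Dnah8 was. Of this list, 1 gene was called higher in each region, while 5 of 22 were lower in the mPFC, 0 of 25 in the BNST and 14 of 23 in the vHPC. Over all genes, 2734 of 18946 were called lower in the mPFC and 5692 of 19559 in the vHPC. The list shares genes with the ependymal markers given below. Dnah7b was lower in the mPFC (-1.41) and vHPC (-2.41), as were Dnah7c (-1.11 and -1.74) and Dnah9 (-0.48 and -0.61). Dnah7b and Dnah7c are close copies, so reads could be split between them. Of 17 genes related to BTBD9 by cullin 3, restless legs loci or iron, 1 was higher and 2 lower in the mPFC, 0 were called in the BNST, and 2 were higher and 7 lower in the vHPC. Kctd5, a cullin 3 adaptor (-1.19), Ptprd, a receptor phosphatase of a restless legs locus (-0.53), and the ferritin light chain gene Ftl1 (-0.45) were among those lower in the vHPC.

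Under stress, 0 of these list genes were called in the mPFC and BNST, except for 1 GLP-1 signalling gene lower in susceptible B6 mice of the mPFC. In the vHPC, susceptible B6 mice had 3 higher and 11 lower of the methylglyoxal and glutathione genes, 2 and 5 of the GLP-1 signalling genes, 1 and 11 of the axonemal genes and 1 and 6 of the BTBD9-related genes. Resilient B6 mice had 2 and 2, 0 and 3, 0 and 2, and 0 and 2 in the same order, and D2 susceptible mice 0 and 1, 0 and 2, 0 and 1, and 0 and 2. Beside the shares of all vHPC genes called higher given above, 20.1% were called lower in susceptible B6, 5.90% in resilient B6 and 2.74% in susceptible D2 mice. Gsr rose in resilient and susceptible B6 mice (log2 differences 0.33 and 0.42), while Slc7a11 fell (-0.34 and -0.58) and Glp2r fell (-0.71 and -1.17), each in the direction of its own strain difference. Gsr and Slc7a11 had been named for their strain difference. Apart from Glp2r, stress values of the genes named for the smallest adjusted p under stress are not given here. No direction is therefore drawn for the lists. Markers of several cell types moved with the vHPC values too. All 8 oligodendrocyte markers were lower in D2 than in B6 controls, and 4 of the 8 were lower in resilient B6 mice, 8 in susceptible B6 and 2 in D2 susceptible mice. Their summed level was 3301 to 3716 CPM in B6 controls, 2412 to 3649 in resilient and 1953 to 2230 in susceptible B6 mice, and 1319 to 2057 in D2 controls and 1136 to 1483 in D2 susceptible mice. In the mPFC the sum was 1586 to 3050 CPM in B6 controls and 1061 to 1553 in D2 controls, and all 8 markers were lower in D2. All 8 were also lower in susceptible B6 mice of the mPFC (median log2 difference -0.78, sum 1147 to 1762 CPM), where the log2 difference of Glo1 was -0.01. The 5 ependymal markers tested in the vHPC were lower in D2 controls (summed level 9.64 to 18.1 CPM against 23.5 to 37.7) and in susceptible B6 mice. All 4 endothelial markers were lower in D2 controls and 3 of the 4 in susceptible B6 mice, and their sum was 254 to 281 CPM in B6 controls, 199 to 219 in susceptible B6 mice and 176 to 192 in D2 controls. Of 5 microglia markers, 4 were lower in D2 controls and 3 in susceptible B6 mice. All 5 choroid plexus markers were lower in D2 controls and 1 in susceptible B6 mice, with sums of 40.9 to 2106 CPM in B6 controls, 24.4 to 536 in D2 controls and 26.4 to 82.3 in susceptible B6 mice. Of 5 excitatory neuron markers, 2 were higher in D2 controls and 4 in susceptible B6 mice, whose sum was 1834 to 2149 CPM against 1484 to 1637 in B6 controls. Of 6 astrocyte markers, 1 was higher and 5 lower in D2 controls, and 1 and 2 in susceptible B6 mice, and 2 of 3 inhibitory neuron markers were higher in each. The part of these cell types in the members' values was not tested.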

How the data were processed

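After adapter trimming and removal of duplicate reads, the authors used STAR for alignment (GRCm38) and HTSeq for counting over exons of each gene, and the BNST table holds these raw counts as deposited. For the mPFC and vHPC the authors deposited log2 CPM, filtered on low abundance, passed through voom and corrected by ComBat for the preparation set and, for vHPC libraries, the sequencing set as well. The sets and reads given for each library are those the study lists. Whether group or strain was protected in that adjustment, and whether counting used strand, is not given in the sources used here.

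In the BNST a gene needed 1 CPM or more in 6 libraries or more. Counts were scaled with TMM and tested with edgeR's robust quasi-likelihood test, and their printed levels are log2 CPM with a prior count of 0.5. Deposited mPFC and vHPC values were tested with limma and robust empirical Bayes. Each region was fitted whole, with a mean per strain and phenotype. Tests were two-sided, Benjamini-Hochberg adjustment ran over all genes, and an adjusted p under 0.05 was called. Each library is 1 mouse, and 0 pairs of columns were identical. The fits were tested on simulated data. Symbols, positions and exon lengths came from GENCODE for GRCm38, which may differ from the annotation used for counting, and upstream sequences from RefSeq.

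The members, lists and rules were chosen with earlier results of these data known, so nothing here is independent of them. Genes named besides the members were the immediate neighbours, neighbours called in at least 2 regions (1 is not reported here), the 5 genes most like Glo1, and in each pathway list up to 3 genes with the smallest adjusted p between strains and up to 2 under stress. Of the cell type lists, those of glia, vessels, ventricle lining and broad neuron classes are reported, and some levels of the hippocampus and striatal lists. Alternatives were DESeq2, other scalings, filters and pseudocounts, limma on voom values, sets or mouse ID prefix as covariates, fewer samples, and each mouse left out. The place of libraries on the strain scale was added after values were seen. Software was Python 3.11.15 (pandas 2.3.3, SciPy 1.17.1, NumPy 2.4.6, matplotlib 3.10.9) and R 4.3.3 (sva 3.50.0, DESeq2 1.42.0, edgeR 4.0.16, limma 3.58.1).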

Additional observations from a re-analysis of the deposited data

Results flagged for a closer look

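In 3 of the 56 groups of 4 to 10 mice examined, 1 mouse lay far from the rest, its gap to the nearest other mouse being large beside the range of the group. Chance alone gives about 5% of groups, and 5.36% were found. Btbd9 was 7.34 log2 CPM in vHPC D2 susceptible replicate 5, where the nearest mouse had 7.41. Dnah8 was -1.92 log2 CPM in BNST B6 resilient replicate 3, where the nearest had -0.20. Dnah8 was 2.43 log2 CPM in mPFC B6 susceptible replicate 4, where the nearest had 1.97.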

How the results depend on the processing

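No paired analysis was possible because replicate numbers follow accession order only and the groups compared within a region share no mouse. The strain differences of Glo1 and Dnah8 in controls kept their call under every alternative, and without single mice the log2 difference of Glo1 ran from 0.77 to 0.84 in the mPFC, 0.87 to 1.07 in the BNST and 1.17 to 1.23 in the vHPC. Genes called between BNST controls were 439, but 221 when only the groups compared were fitted and 660 with DESeq2. In the vHPC they fell from 11603 to 1643 with the preparation set as a covariate, which left few mice per set.

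In vHPC B6 resilient mice, the preparation set as a covariate ended each call, with log2 differences of 0.23 for Btbd9, 2.42 for Dnah8, 0.62 for Glo1 and 0.71 for Glp1r. In B6 susceptible mice it ended those of Btbd9 (0.22), Glo1 (0.52) and Glp1r (0.67), and in D2 susceptible mice that of Glo1 (0.11), while Dnah8 turned to -0.38 there. The sequencing set as a covariate ended the resilient calls of Btbd9 (0.17), Dnah8 (0.72) and Glp1r (0.58) and the D2 call of Glo1 (0.28). Sequencing set 1 alone holds 1 resilient B6 and 1 susceptible D2 mouse, each assumed to vary like the other groups, so its lost calls say little. They were the resilient ones of Btbd9 (0.25), Dnah8 (0.88), Glo1 (0.39) and Glp1r (0.87) and the D2 one of Glo1 (0.23), and Dnah8 in D2 was -0.031. Dnah8 between strains in susceptible mice, at 1.41, was not called there either. Genes called in B6 mice, resilient then susceptible, and in D2 susceptible mice, which were 2120, 7949 and 837, became 558, 7238 and 380 with the sequencing set as a covariate, 216, 5850 and 4 in sequencing set 1 alone, and 1260, 7268 and 708 when only the groups compared were fitted. Btbd9 in D2 susceptible mice (0.14) was called with a trend in empirical Bayes, and leaving out single mice gave 0.11 to 0.16, with 1 call (without D2 control replicate 4).

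Reversals were otherwise among differences that were not called, and their cause was not tested beyond the scaling. Without TMM factors the median log2 difference of all BNST genes was -0.25 in B6 susceptible and 0.27 in D2 susceptible mice, against 0.007 and -0.04 with them. Dnah8 became -0.25 in B6 susceptible and 0.029 in D2 resilient mice, and Glo1 -0.14 in B6 resilient, 0.023 in D2 resilient and 0.00547 in D2 susceptible mice and 0.16 in the resilient interaction. Glo1 in BNST B6 resilient mice was -0.00973 with the preparation set as a covariate and -0.00337 on voom values after ComBat. With the prefix of the mouse ID in the fit, which could not be fitted for strain, mPFC Glo1 was 0.056 and Glp1r -0.21 in B6 susceptible mice, and the interaction was 0.068 for Dnah8 and -0.000119 for Glo1.

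Leaving out single mice turned the sign of uncalled differences as follows. In BNST B6 resilient mice Glo1 ran from -0.048 to 0.050 and Glp1r from -0.71 to 0.018 (without control replicate 4), and in B6 susceptible mice Dnah8 from -0.15 to 0.28 and Glp1r from -0.54 to 0.014 (without susceptible replicate 3). In BNST D2 resilient mice Dnah8 ran from -0.53 to 0.11 and Glp1r from -0.44 to 0.37, and in D2 susceptible mice Dnah8 from -0.055 to 0.35. The BNST interaction of Dnah8 ran from -0.28 to 0.36 in resilient and from -0.16 to 0.32 in susceptible mice, and that of Glp1r from -0.17 to 0.79 in resilient mice. In the mPFC, Btbd9 ran from -0.014 to 0.054 and Glo1 from -0.050 to 0.027 in B6 resilient mice, and Glo1 from -0.048 to 0.030 and Glp1r from -0.13 to 0.31 in B6 susceptible mice. Requiring a mean of at least 1 log2 CPM removed low members and gave no value for them. Dnah8 and Glp1r, with few reads, have the widest errors.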
